A study of Mus musculus with 36 samples.

Results

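The TSC22 domain family of the mouse consists of Tsc22d1, Tsc22d2, Tsc22d3 and Tsc22d4. Its members were taken by gene name from a table of read counts and make up 4 of the 55487 genes of the table. The family was chosen with earlier results of these data known. All 4 were among the 15489 genes that had enough counts to be tested, with 299 to 11170 counts per library. The table comes from RNA sequencing of primary murine embryonic fibroblasts (MEFs) that received vehicle or 1 µM dexamethasone (Dex), a synthetic glucocorticoid, for 5 h. It holds 36 libraries of 5 genotypes of the glucocorticoid receptor (GR, encoded by Nr3c1), with 3 libraries for each genotype, treatment and run. The study did the experiment in 2 parts, each with GRwt/wt libraries. These parts are called runs here, and sequencing runs on the figure axes. The comparisons ask how much of the Dex response of the family each mutant receptor retains, and whether the genes differ between genotypes without Dex.

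Run 1 comprised GRwt/wt replicates 1 to 3, GRD/D, GRD+L/D+L and GRko/ko, and run 2 comprised GRwt/wt replicates 4 to 6 and GRL/L. GRD/D MEFs are homozygous for a substitution in the dimer interface of the DNA-binding domain of GR. GRL/L MEFs carry a substitution in the ligand-binding domain, GRD+L/D+L MEFs carry both substitutions in the same receptor, and GRko/ko MEFs lack a functional receptor. The L and D+L alleles were made by gene editing in zygotes heterozygous for the D allele, and the D+L line goes back to a single founder pup. Every library is labelled FVB/NJ, while the methods of the study name another strain for the mice that were intercrossed for the receptor knockout. The design text of the series gives 3 primary cultures for a genotype, with another mouse behind every culture. The labels do not say which vehicle and Dex libraries share a culture.

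Library totals ranged from 15280166 to 28662608 counts. Nr3c1 stood at 16.6 ± 1.16 CPM (counts per 1000000 counts of the library, scaled between libraries, SD, n = 3) in vehicle-treated GRko/ko MEFs against 70.2 ± 3.67 in GRwt/wt of run 1, and at 78.2 to 103 CPM in the other mutants and in GRwt/wt of run 2. The 10 fibroblast markers summed to between 21180 and 37300 CPM in every library. Epithelial markers summed to at most 28.6 CPM, endothelial to 19.3, skeletal muscle to 140 and cartilage to 535 CPM. The 10 macrophage markers summed to 30.4 to 40.6 CPM in GRD+L/D+L, 193 to 343 CPM in GRwt/wt of run 1, 706 to 844 CPM in GRD/D and 2753 to 3231 CPM in GRko/ko, and to 456 to 510 CPM in GRwt/wt and 730 to 1029 CPM in GRL/L of run 2. Xist, which is transcribed in female cells, reached 165 to 305 CPM in GRwt/wt of run 1 and in GRD/D and at most 14.1 CPM elsewhere, whereas 4 Y-linked genes summed to 136 to 283 CPM in the remaining cultures and to at most 2.08 CPM in those with Xist. GRwt/wt of run 1 and GRD/D thus had the pattern of female cells, and GRD+L/D+L, GRko/ko and both sets of run 2 that of male cells.

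TSC22 domain proteins share a conserved box followed by a leucine zipper, through which they form homodimers and heterodimers. Tsc22d3 encodes Gilz (glucocorticoid-induced leucine zipper), a classical target gene of GR that binds NF-κB, AP-1 and members of the Ras and Raf pathway and dampens inflammatory signalling. Tsc22d1 was first described as a gene stimulated by TGF-β, and long isoforms of Tsc22d1, Tsc22d2 and Tsc22d4 bind the pseudokinase Nrbp1 and take part in the WNK kinase response to cell volume.

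The genes lie on different chromosomes. In the mm10 build (GRCm38, GENCODE M21 annotation), Tsc22d3 (ENSMUSG00000031431) covers chrX:140539528-140600659 on the minus strand and has 6 annotated transcripts, 3 of them protein coding. Tsc22d1 (ENSMUSG00000022010) covers chr14:76414961-76507765 on the plus strand with 16 transcripts, 10 of them coding. Tsc22d2 (ENSMUSG00000027806) covers chr3:58414715-58466783 and Tsc22d4 (ENSMUSG00000029723) covers chr5:137745730-137768450, both on the plus strand. No other annotated gene overlaps any of the 4 in that annotation. The counts are summed over all transcripts of a gene, so long and short isoforms were not separated.

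GR binds DNA as a dimer at a palindrome whose arms read AGAACA and TGTTCT, spaced by 3 bases, and either arm alone is called a half-site. Start-site windows of 300 bases, from 250 bases before an annotated start to 50 bases after it, were taken from RefSeq (GRCm38.p6) and held 5 windows of Tsc22d1 and 3 of Tsc22d3. Windows of Tsc22d2 and Tsc22d4 were not analysed here. The exact palindrome was in 0 of these 8 windows and in 0.00913% of all 32851 windows. A half-site was present in 1 window of Tsc22d3 and 1 of Tsc22d1, and in 19.0% of all windows, with both strands searched. The FoxO motif GTAAACA (3.65% of all windows) and the cyclic AMP response element TGACGTCA (1.79%) were in none of the 8. These matches are descriptions of letters near the start sites, not of binding. The 2 windows with a half-site are shown because they belong to the member that Dex raised most and to the member that rose in GRD/D and GRD+L/D+L. Each is written 5′ to 3′ on the strand of its gene with the half-site in capitals. The first is chrX:140600473-140600772 on the minus strand, at the upstream start of Tsc22d3, and its half-site ends 180 bases before that start. The second is chr14:76503976-76504275 on the plus strand, at a downstream start of Tsc22d1, with the half-site ending 132 bases before it.
Tsc22d3: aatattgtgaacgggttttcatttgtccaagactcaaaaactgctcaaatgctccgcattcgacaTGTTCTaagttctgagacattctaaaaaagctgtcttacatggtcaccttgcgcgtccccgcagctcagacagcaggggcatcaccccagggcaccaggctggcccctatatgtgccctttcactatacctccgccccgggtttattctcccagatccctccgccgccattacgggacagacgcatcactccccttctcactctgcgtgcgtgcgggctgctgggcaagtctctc
Tsc22d1: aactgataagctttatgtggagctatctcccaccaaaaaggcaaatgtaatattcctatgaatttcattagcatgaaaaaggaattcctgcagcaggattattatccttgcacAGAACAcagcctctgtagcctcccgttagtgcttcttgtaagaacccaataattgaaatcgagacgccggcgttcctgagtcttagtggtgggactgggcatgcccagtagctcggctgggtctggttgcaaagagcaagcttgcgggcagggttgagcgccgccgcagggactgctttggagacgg

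Dex changed different numbers of the 4 genes in the 6 sets of MEFs (quasi-likelihood F test of edgeR, p adjusted by the Benjamini-Hochberg method over all genes tested, called at an adjusted p of at most 0.05). In GRwt/wt it changed 2 of 4 in run 1, where 13.9% of all genes passed, and 3 of 4 in run 2, where 31.6% passed. It changed 3 of 4 in GRD/D (11.9% of all genes), 2 of 4 in GRD+L/D+L (5.00%) and 3 of 4 in GRL/L (19.1%). In GRko/ko it changed 0 of 4, as edgeR called 0 of all genes (0%), with 859 at an unadjusted p under 0.05 and 1 called by DESeq2. The median log2 change of the 4 genes was 0.19 in both GRwt/wt sets, 0.28 in GRD/D, 0.20 in GRD+L/D+L, 0.01 in GRko/ko and 0.09 in GRL/L, while that of all genes tested lay between -0.01 and 0.00. Only Tsc22d3 changed by more than 1 on the log2 scale, and it did so in GRwt/wt of both runs and in GRL/L.

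Tsc22d3 rose strongly with Dex in GRwt/wt MEFs of both runs. Its levels with vehicle were 25.1, 29.2 and 23.9 CPM in run 1 and 35.8, 32.6 and 33.7 CPM in run 2. With Dex the run 1 libraries stood at 92.9, 94.6 and 91.9 CPM, and those of run 2 at 438, 394 and 377 CPM. The vehicle and Dex libraries were far apart in each run, and every Dex library of run 2 lay above every Dex library of run 1. The rise was 3.57-fold in run 1 (log2 change 1.84, SE 0.0702, adjusted p = 2.20e-21 by edgeR, n = 3) and 11.8-fold in run 2 (log2 change 3.56, SE 0.0643, adjusted p = 7.30e-32). By size of the log2 change Tsc22d3 ranked 151st from the top among the 15489 genes in run 1 and 24th in run 2.

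**Figure D1:**
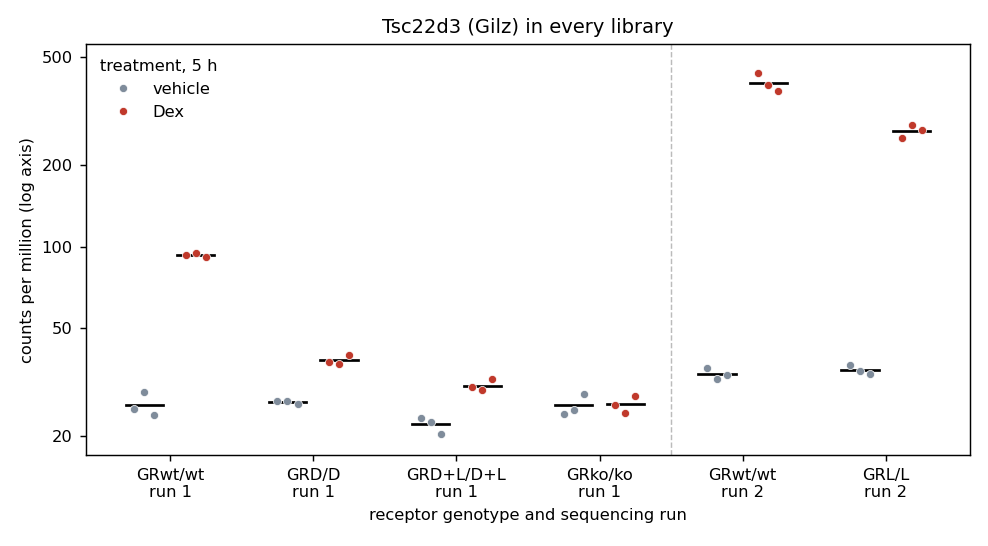
Level of Tsc22d3 (Gilz) in every library, in CPM on a log axis, by receptor genotype and run. Points are libraries, horizontal bars are means of 3, grey is vehicle and red is Dex. Dex libraries reached 377 to 438 CPM in GRwt/wt of run 2 and 91.9 to 94.6 CPM in GRwt/wt of run 1, and overlapped the vehicle libraries in GRko/ko.

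Between the 2 runs the Dex change of Tsc22d3 in GRwt/wt differed by 1.73 on the log2 scale (SE 0.0942, adjusted p = 2.37e-15), which was the smallest p of all genes tested, in a comparison where 7.09% of genes passed. It was the one member of 4 whose response differed between the runs in this test. Tsc22d2 fell by 0.24 more in run 2 (adjusted p = 0.0611), and the differences of Tsc22d1 (-0.03) and Tsc22d4 (0.04) were near 0. Several other glucocorticoid-induced genes also responded more in run 2, among them Fkbp5, a chaperone of GR, whose difference was 1.12 (adjusted p = 6.42e-11). The GRwt/wt cultures of run 1 were female and those of run 2 male, and Tsc22d3 is X-linked. Run, sex and embryo of origin cannot be told apart in this comparison, and mutants are therefore compared with GRwt/wt of their own run.

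In both mutants of the DNA-binding domain the Tsc22d3 response was small, and it passed the test in each. In GRD/D the vehicle libraries stood at 26.9, 26.9 and 26.4 CPM and the Dex libraries at 37.6, 37.0 and 40.0 CPM, a rise of 1.43-fold (log2 change 0.52, SE 0.0740, adjusted p = 2.98e-06). In GRD+L/D+L vehicle gave 23.4, 22.5 and 20.3 CPM and Dex gave 30.3, 29.5 and 32.4 CPM, a rise of 1.39-fold (log2 change 0.47, SE 0.0786, adjusted p = 5.49e-05). Vehicle and Dex libraries did not overlap in either mutant, yet no Dex library of the mutants came near those of GRwt/wt. On the log2 scale, the rise in GRD/D was 28.1% of that in GRwt/wt of run 1, and the rise in GRD+L/D+L was 25.8% of it. The 198 genes called and raised by at least 1 on that scale in GRwt/wt of run 1 include Tsc22d3. Their median share kept was 27.5% in GRD/D and 21.2% in GRD+L/D+L. A larger share than that of Tsc22d3 was kept by 96 of them in GRD/D and by 91 in GRD+L/D+L. The 198 genes were chosen by their rise in the same GRwt/wt libraries that the share divides by. That choice tends to lower the shares by itself, so the shares are a description and not a test. In CPM, Dex added 11.5 in GRD/D and 8.63 in GRD+L/D+L, against 67.0 in GRwt/wt. Neither rise of Tsc22d3 passed with the formula of the study, which has run as a term and gives GRwt/wt 1 Dex change for both runs (GRD/D 0.52, adjusted p = 0.178, and GRD+L/D+L 0.47, adjusted p = 0.430).

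GRko/ko MEFs showed no detectable response of Tsc22d3. The vehicle libraries held 24.2, 24.9 and 28.7 CPM and the Dex libraries 26.2, 24.4 and 28.1 CPM, so the groups overlapped throughout. The log2 change was 0.02 (SE 0.0767, adjusted p = 0.996), with an interval from -0.13 to 0.17 at 95% confidence.

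The differences of the Dex change from GRwt/wt of run 1 were larger than the spread between libraries in all 3 mutants, which share these control libraries. For Tsc22d3 the difference was -1.32 in GRD/D (SE 0.102, adjusted p = 8.26e-12), -1.36 in GRD+L/D+L (SE 0.106, adjusted p = 7.47e-12) and -1.82 in GRko/ko (SE 0.104, adjusted p = 1.04e-15). Of the 4 genes, 2 differed in GRD/D (3.29% of all genes), 2 in GRD+L/D+L (3.23%) and 2 in GRko/ko (8.48%), and Tsc22d3 was one of them each time. GRD/D shares the sex of GRwt/wt of run 1, and the other 2 mutants do not. With the formula of the study the Tsc22d3 differences were -2.31, -2.35 and -2.81 in the same order, as its GRwt/wt change was 2.83.

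The Tsc22d3 response of GRD+L/D+L, which adds the ligand-binding substitution, did not differ detectably from that of GRD/D. These cultures also differ in sex and in the macrophage markers given above, and the part of either was not tested. The Dex change in GRD+L/D+L was lower than that in GRD/D by 0.04 (log2 difference -0.04, adjusted p = 0.936), and the interval from -0.25 to 0.17 leaves room for a moderate difference in either direction. None of the 4 genes differed between these mutants in the edgeR test (0 of 4, where 0.0775% of all genes passed). An unadjusted p under 0.05 was found for 1600 of the 15489 genes, and 1 of the 4, Tsc22d4 (-0.19, adjusted p = 0.423), was among those. DESeq2 also called 0 of the 4.

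GRL/L MEFs kept most of the Tsc22d3 response. With vehicle they held 36.6, 34.9 and 34.0 CPM, overlapping GRwt/wt of run 2, and with Dex 252, 281 and 270 CPM. The rise of 7.62-fold (log2 change 2.93, SE 0.0629, adjusted p = 1.96e-29) was 82.2% of the GRwt/wt rise of the same run on the log2 scale. The 378 genes called and raised by at least 1 on the log2 scale in GRwt/wt of run 2 kept a median of 70.6%. Tsc22d3 is among them, and 116 of them kept a larger share. These genes too were chosen by the GRwt/wt libraries that the share divides by, which tends to lower the shares. In CPM, Dex added 233 in GRL/L and 369 in GRwt/wt. All 3 Dex libraries of GRL/L nevertheless lay below the lowest Dex library of GRwt/wt. The difference of the Dex change was -0.63 (SE 0.0859, adjusted p = 8.21e-06), and Tsc22d3 was the only 1 of the 4 genes to differ between GRL/L and GRwt/wt, with 1.85% of all genes passing. This difference rests on GRwt/wt of run 2. In a model that gives GRwt/wt of both runs a single Dex change, as the formula of the study does, it became 0.10 (adjusted p = 0.948), since that change lies between the 2 runs.

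Set in order by mean level, the Dex libraries of GRwt/wt of run 2 (403 CPM) were followed by those of GRL/L (268 CPM), GRwt/wt of run 1 (93.1 CPM) and GRD/D (38.2 CPM), with no overlap between neighbours. Vehicle-treated GRL/L and GRwt/wt of run 2 came next and overlapped each other. Dex-treated GRD+L/D+L (30.7 CPM) lay just below them. Vehicle-treated GRD/D (26.7 CPM), both groups of GRko/ko and vehicle-treated GRwt/wt of run 1 overlapped around 26 CPM, and vehicle-treated GRD+L/D+L was lowest at 22.1 CPM. Levels of different runs are set side by side here without a test.

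Tsc22d1 had another pattern, with no detectable change in GRwt/wt and a small rise in the mutants of the DNA-binding domain. In GRwt/wt of run 1 it stood at 399, 406 and 383 CPM with vehicle and at 400, 391 and 378 CPM with Dex (log2 change -0.02, adjusted p = 0.824), and in run 2 the change was -0.05 (adjusted p = 0.425). In GRD/D it went from 362, 374 and 333 CPM to 418, 430 and 424 CPM (log2 change 0.25, SE 0.0466, adjusted p = 0.000186). In GRD+L/D+L it went from 432, 424 and 406 CPM to 522, 508 and 509 CPM (log2 change 0.29, SE 0.0464, adjusted p = 3.89e-05). Vehicle and Dex libraries did not overlap in these mutants and overlapped in the other 4 sets. The Dex change exceeded that of GRwt/wt of run 1 by 0.27 in GRD/D (SE 0.0658, adjusted p = 0.00947) and by 0.31 in GRD+L/D+L (SE 0.0657, adjusted p = 0.00248), against the same control libraries. In GRko/ko, where vehicle gave 241 to 268 CPM and Dex 253 to 274 CPM, the change was 0.08 (adjusted p = 0.930) and its difference from GRwt/wt was 0.10 (adjusted p = 0.427). In GRL/L the change was 0.01 (adjusted p = 0.901).

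Tsc22d4 rose moderately with Dex in GRwt/wt, to a like extent in both runs. With vehicle it stood at 84.9, 85.9 and 84.4 CPM in run 1 and with Dex at 115, 113 and 108 CPM (log2 change 0.40, SE 0.0612, adjusted p = 4.99e-06). In run 2 it went from 51.6, 52.4 and 56.1 CPM to 76.9, 71.6 and 68.5 CPM (log2 change 0.44, SE 0.0606, adjusted p = 3.10e-07). The groups did not overlap in either run.

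In the mutants of run 1 the Tsc22d4 response passed in GRD/D only, and GRD/D and GRD+L/D+L did not differ detectably from each other (-0.19, adjusted p = 0.423). GRD/D showed a rise from 85.9, 69.4 and 87.2 CPM to 97.4, 103 and 99.8 CPM (log2 change 0.31, SE 0.0615, adjusted p = 0.000478), which was not distinguishable from that of GRwt/wt (difference -0.09, interval -0.26 to 0.08). GRD+L/D+L had 93.7, 89.9 and 87.5 CPM with vehicle and 101.3, 96.8 and 95.8 CPM with Dex, a change of 0.12 that did not pass (adjusted p = 0.395). Its difference from GRwt/wt, -0.28, had an adjusted p of 0.0681 in edgeR and passed in DESeq2 (adjusted p = 0.0467) and with the formula of the study (-0.30, adjusted p = 0.00756). The edgeR test called it without GRD/D vehicle replicate 2 (adjusted p = 0.0147), GRD/D vehicle replicate 3 (0.0410) or GRwt/wt Dex replicate 4 (0.0477), none of which enters the contrast. In GRko/ko Tsc22d4 stood at 83.8 to 90.1 CPM with vehicle and 82.9 to 89.1 CPM with Dex, and its change was lower than in GRwt/wt by 0.44 on the log2 scale (log2 difference -0.44, SE 0.0867, adjusted p = 0.000498).

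In GRL/L Tsc22d4 went from 62.2, 61.2 and 54.0 CPM to 68.6, 64.9 and 66.4 CPM (log2 change 0.17, SE 0.0602, adjusted p = 0.0376). This call was fragile. It was lost without GRL/L Dex replicate 1 (adjusted p = 0.137), replicate 2 (0.0501) or replicate 3 (0.0819), without GRL/L vehicle replicate 3 (0.280) and without a filter on low counts (0.0579). The difference of the Dex change from GRwt/wt of run 2 was -0.27 (SE 0.0854, adjusted p = 0.115), and it passed without GRL/L vehicle replicate 3 (-0.33, adjusted p = 0.0381) or GRD/D vehicle replicate 2 (-0.27, adjusted p = 0.0306).

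Tsc22d2 was the only member that fell with Dex, and it fell in run 2. In GRwt/wt it went from 96.3, 93.5 and 103 CPM to 74.1, 76.3 and 79.2 CPM (log2 change -0.35, SE 0.0565, adjusted p = 4.87e-06). In GRL/L it went from 93.0, 94.5 and 94.7 CPM to 82.7, 74.1 and 81.7 CPM (log2 change -0.24, SE 0.0562, adjusted p = 0.00143). The groups did not overlap in either genotype, and the 2 changes did not differ detectably (difference 0.11, interval -0.05 to 0.27, adjusted p = 0.620). In run 1, GRwt/wt went from 189, 199 and 208 CPM to 187, 180 and 183 CPM without passing the test (log2 change -0.11, adjusted p = 0.198, but -0.23 and 8.36e-05 with the 1 change for both runs in the formula of the study), and the changes were -0.07 in GRD/D and 0.00 in GRD+L/D+L and GRko/ko. Its difference between the GRwt/wt sets of the 2 runs, -0.24, did not pass (adjusted p = 0.0611) and lay at the threshold under several alternatives, with adjusted p = 0.0491 at 10 or more counts in every library, 0.0493 without a filter on low counts and 0.0484 with the culture as a replicate block. It also passed without GRD/D vehicle replicate 2 (0.0345) or 3 (0.0208), GRko/ko Dex replicate 3 (0.0482), GRwt/wt Dex replicate 6 (0.0483) or GRwt/wt vehicle replicate 3 (0.0351).

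**Figure D2:**
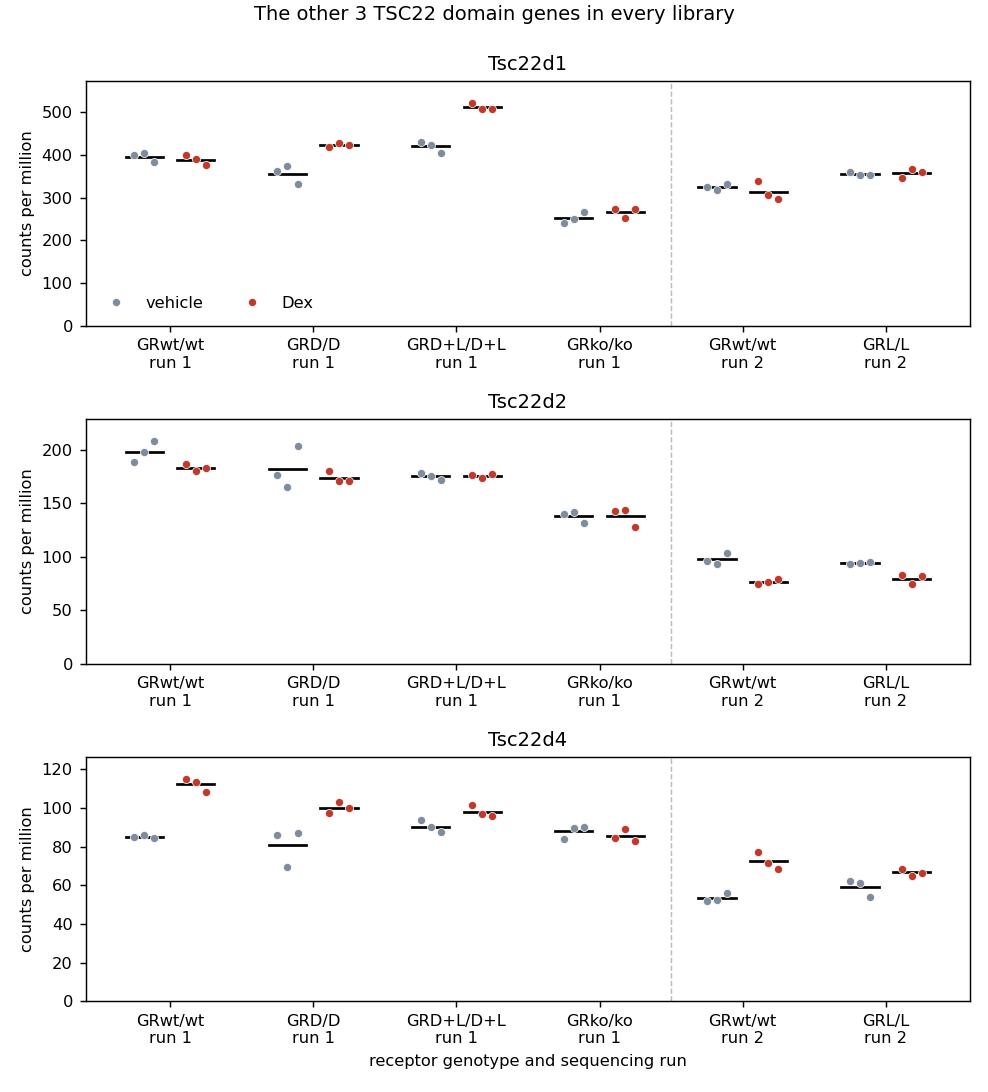
Levels of Tsc22d1, Tsc22d2 and Tsc22d4 in every library, in CPM on axes that start at 0. Points are libraries, bars are means of 3, grey is vehicle and red is Dex. Tsc22d1 rose in GRD/D and GRD+L/D+L, Tsc22d4 rose in GRwt/wt of both runs, GRD/D and GRL/L, and Tsc22d2 fell in the 2 sets of run 2.

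**Figure D3:**
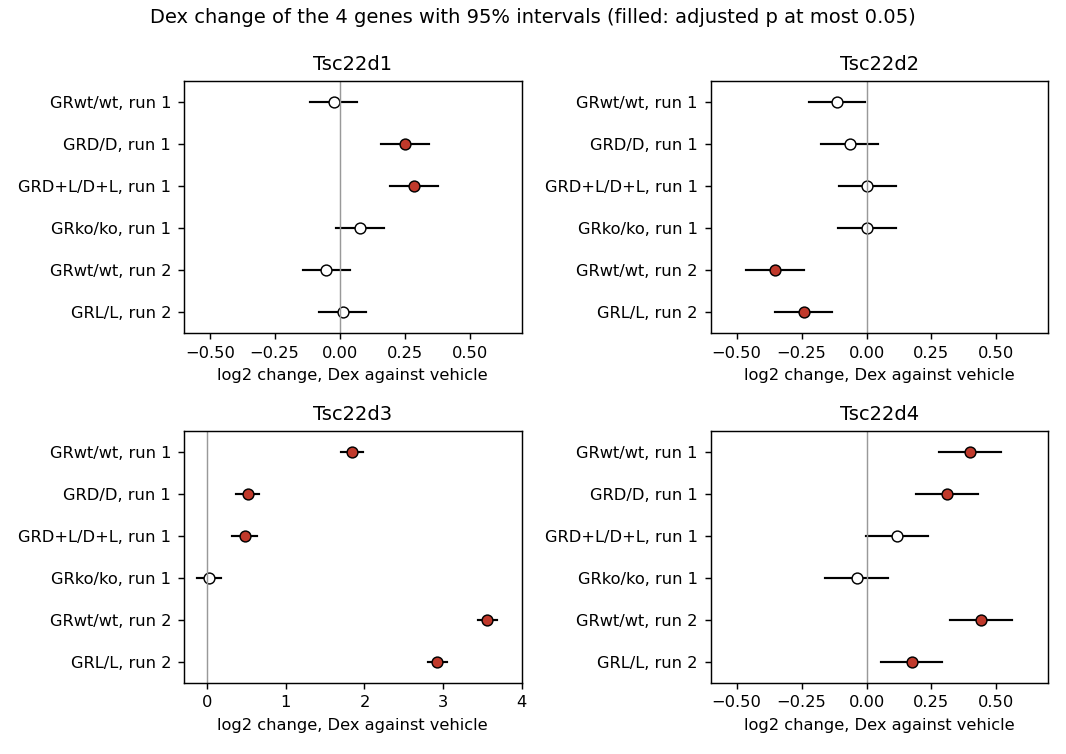
Log2 change with Dex for each of the 4 genes in the 6 sets, with intervals at 95% confidence, where filled points passed at an adjusted p of at most 0.05. The axis of Tsc22d3 runs to 4 and those of the other genes to 0.7. The largest change was 3.56 for Tsc22d3 in GRwt/wt of run 2, and no point of GRko/ko is filled.

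Without Dex, Tsc22d1 and Tsc22d2 were lower in GRko/ko than in GRwt/wt, while Tsc22d3 and Tsc22d4 did not pass in the within-run comparison. Tsc22d1 stood at 241, 250 and 268 CPM in GRko/ko and at 383 to 406 CPM in GRwt/wt of run 1 (log2 difference -0.65, SE 0.0471, adjusted p = 2.62e-14). Tsc22d2 stood at 140, 142 and 131 CPM against 189 to 208 CPM (log2 difference -0.53, SE 0.0560, adjusted p = 5.02e-10). The libraries of the 2 genotypes did not overlap for either gene. These 2 of 4 genes stand beside 45.7% of all genes, which also passed in this comparison. Tsc22d3 differed by -0.01 (interval -0.16 to 0.15) and Tsc22d4 by 0.05 (interval -0.08 to 0.17). With the formula of the study the Tsc22d3 difference was 0.57 and passed (adjusted p = 0.0366). That formula gives GRwt/wt 1 Dex change for both runs, so the GRwt/wt vehicle level it fits need not match the libraries. The vehicle means of Tsc22d3 in run 1 were 26.0 CPM in GRko/ko and 26.1 CPM in GRwt/wt. The same limit holds for the vehicle differences of Tsc22d3 given with this formula for the other mutants. All 10 macrophage markers were higher in GRko/ko, the cultures differ in sex and the methods give another strain, and the part of these in the lower Tsc22d1 and Tsc22d2 was not tested. In bulk RNA, fewer cells of a type and less RNA per cell cannot be told apart.

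In the other mutants the vehicle levels lay close to GRwt/wt. In GRD+L/D+L, 2 of 4 genes passed, beside 29.9% of all genes. Tsc22d3 was lower by 0.24 (log2 difference -0.24, SE 0.0805, adjusted p = 0.0235), and all 3 GRD+L/D+L libraries lay below the lowest GRwt/wt library. The call was lost without GRD+L/D+L vehicle replicate 3 (-0.18, adjusted p = 0.133) or GRwt/wt vehicle replicate 2 (-0.16, adjusted p = 0.197), and with the formula of the study the difference turned to 0.34 (adjusted p = 0.282). Tsc22d2 was lower by 0.18 (log2 difference -0.18, SE 0.0556, adjusted p = 0.0133), with 172 to 179 CPM against 189 to 208 CPM, and this call was lost without GRwt/wt vehicle replicate 3 (-0.14, adjusted p = 0.0851). All 10 macrophage markers and 7 of 10 fibroblast markers were lower in GRD+L/D+L, and their part in these differences was not tested.

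In GRD/D, 1 of 4 genes passed, beside 9.55% of all genes. This was Tsc22d1, which was lower by 0.15 (log2 difference -0.15, SE 0.0466, adjusted p = 0.0307). The call did not hold without a filter on low counts (adjusted p = 0.0660), nor without GRD/D vehicle replicate 3 (-0.10, adjusted p = 0.154), GRwt/wt vehicle replicate 1 (-0.15, adjusted p = 0.0934) or GRwt/wt vehicle replicate 2 (-0.14, adjusted p = 0.102). Tsc22d2 differed by -0.12 (adjusted p = 0.169) and passed without GRD/D vehicle replicate 3 (-0.21, adjusted p = 0.00556), which held 204 CPM where the other two held 177 and 166. It also passed with the formula of the study (-0.18, adjusted p = 0.0332). Tsc22d3 differed by 0.04 (interval -0.12 to 0.19), and by 0.62 with that formula (adjusted p = 0.0701). All 10 macrophage markers were higher in GRD/D, with a median log2 difference of 1.51, and their part in the lower Tsc22d1 was not tested.

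In GRL/L, edgeR and DESeq2 both called 0 of 4 genes, while edgeR called 11.3% of all genes. Tsc22d1 was 0.13 above GRwt/wt (adjusted p = 0.0708) and Tsc22d4 0.15 above it (adjusted p = 0.122), and these 2 genes alone of the 4 had an unadjusted p under 0.05. Tsc22d1 passed without GRD/D vehicle replicate 3 (adjusted p = 0.0498) or GRwt/wt Dex replicate 4 (0.0375) and with the formula of the study (0.0364), and Tsc22d4 without GRD/D vehicle replicate 2 (0.0481) or GRL/L vehicle replicate 3 (0.0329). Tsc22d3 differed by 0.05 (interval -0.08 to 0.17), and by -0.41 with that formula (adjusted p = 0.215). All 10 macrophage markers were higher in GRL/L too.

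**Figure D4:**
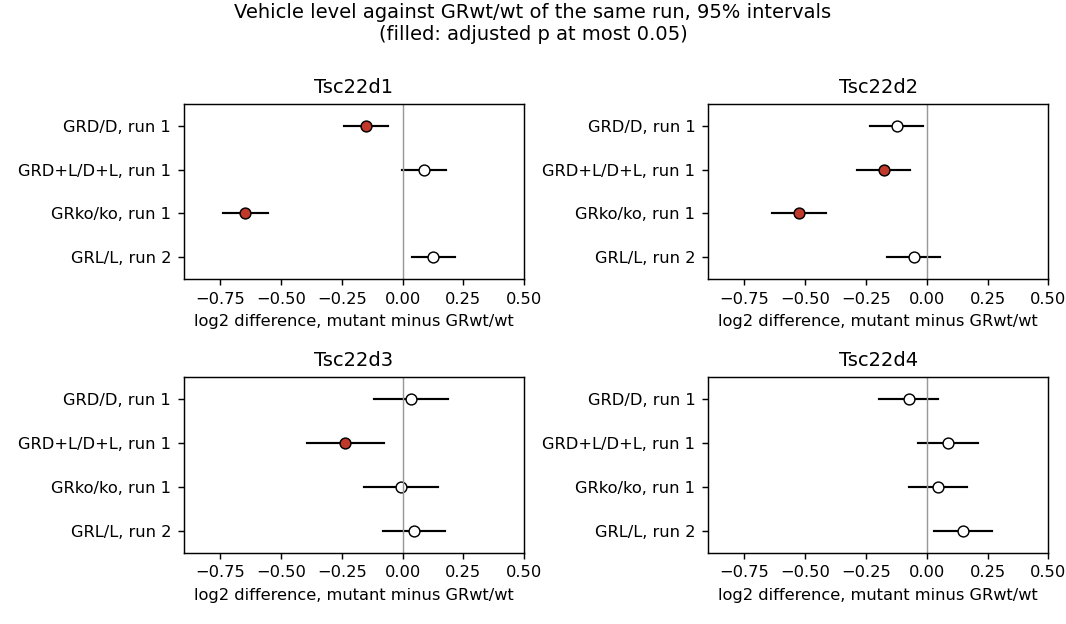
Log2 difference of the vehicle level between each mutant and GRwt/wt of the same run, with intervals at 95% confidence and filled points for an adjusted p of at most 0.05. Tsc22d1 (-0.65) and Tsc22d2 (-0.53) in GRko/ko stand apart, and Tsc22d3 passed in GRD+L/D+L only.

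Levels of different genes were compared per kilobase of annotated exon, which assumes that all exons of a gene are used. With vehicle, Tsc22d1 was the most abundant member in every genotype, at 44.0 ± 1.30 CPM per kilobase (SD, n = 3) in GRwt/wt of run 1, and Tsc22d3 was the least abundant in run 1 at 6.01 ± 0.634. Its share of the summed level of the family was 7.59% ± 0.638 with vehicle and 22.3% ± 0.399 with Dex in GRwt/wt of run 1, where Tsc22d1 still led. In run 2 Tsc22d3 took the first place with Dex. Its share went from 13.1% ± 0.604 to 64.3% ± 0.569 in GRwt/wt and from 12.7% ± 0.241 to 52.5% ± 1.17 in GRL/L. In GRD/D it moved from 8.46% ± 0.149 to 10.4% ± 0.428 and in GRD+L/D+L from 6.40% ± 0.262 to 7.63% ± 0.382, and it remained the last of the 4 in both. In GRko/ko it was 10.3% ± 0.625 with vehicle and 10.2% ± 0.670 with Dex.

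**Figure D5:**
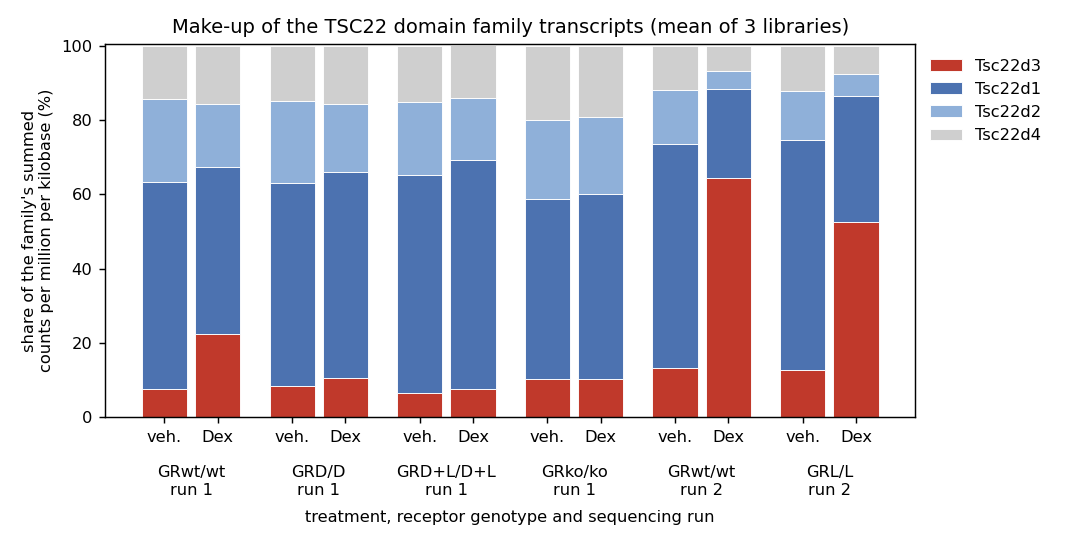
Share of each gene in the summed CPM per kilobase of the 4 genes, as the mean of 3 libraries, for vehicle (veh.) and Dex in the 6 sets. Tsc22d3 (red) grew from 13.1% to 64.3% with Dex in GRwt/wt of run 2, and in GRko/ko it was 10.3% and 10.2%.

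The members did not follow a common pattern over the 36 libraries. After subtracting the GRwt/wt vehicle mean of the run, the log2 levels of Tsc22d3 and Tsc22d4 had a Pearson correlation of 0.791 and those of Tsc22d1 and Tsc22d2 one of 0.623, while the 4 remaining pairs ranged from -0.209 to 0.357. The libraries share treatments and controls, so these values describe the patterns and carry no test. The genes most like each member were picked from the same libraries, so their Dex changes are no separate support for its pattern. Vehicle differences between genotypes also enter the correlations. Among the 11780 genes that averaged 50 or more counts, the pattern of Tsc22d3 was matched best by Fkbp5 (0.978), followed by Ust, a sulfotransferase of dermatan and chondroitin chains (0.969), Stim1, the calcium sensor of the endoplasmic reticulum (0.966), Dpf1 (0.966) and the transcription factor Tead4 (0.965). Fkbp5 rose by 2.58 in GRwt/wt of run 1, 1.07 in GRD/D, 0.99 in GRD+L/D+L, 3.70 in GRwt/wt of run 2 and 3.29 in GRL/L on the log2 scale, against -0.02 in GRko/ko. Stim1 and Dpf1 rose in GRwt/wt and GRL/L but did not pass in GRD/D (0.04 and -0.16) or GRD+L/D+L (0.08 and -0.01).

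Tsc22d4 was matched best by the clock gene Per1 (0.906), Csrnp1 (0.904), the sphingosine kinase Sphk1 (0.899), Fam117b (0.890) and Numbl (0.888). All 5 rose in GRwt/wt of run 1 and in GRD/D, by 1.91 and 1.86 for Per1, 0.91 and 0.46 for Csrnp1, 1.73 and 1.00 for Sphk1, 0.67 and 0.40 for Fam117b and 0.71 and 0.23 for Numbl. In GRD+L/D+L, where Tsc22d4 did not pass, Per1 (1.42), Csrnp1 (0.46), Sphk1 (0.88) and Fam117b (0.43) rose and Numbl did not pass (0.19, adjusted p = 0.0686). Tsc22d2 was matched by Ptprn (0.925), Kpna6 (0.925), Stat3 (0.920), Tnfrsf23 (0.914) and Nedd4l (0.914), of which all 5 fell with Dex in GRwt/wt of run 2, by 0.14 to 0.51 on the log2 scale. Tsc22d1 was matched by the growth factor Fgf2 (0.952), Fam78b (0.928) and Slc9a3r2 (0.927). Fgf2 rose by 0.31 in GRD/D (adjusted p = 1.22e-05) and 0.30 in GRD+L/D+L (adjusted p = 2.48e-05), and its change was -0.03 in GRwt/wt of run 1 (adjusted p = 0.792) and -0.20 in GRwt/wt of run 2 (adjusted p = 0.00123). Fam78b rose by 0.51 in GRD/D and 0.40 in GRD+L/D+L, whereas Slc9a3r2 passed in neither (0.13, adjusted p = 0.103, and 0.10, adjusted p = 0.332).

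Genes around the family were read as lists, which were chosen with earlier results of these data known. Each list is set beside the median log2 change of all genes, which lay between -0.01 and 0.00. It is also set beside the share of all genes that passed in either direction. That share was 13.9% in GRwt/wt of run 1, 11.9% in GRD/D, 5.00% in GRD+L/D+L, 0% in GRko/ko, 31.6% in GRwt/wt of run 2 and 19.1% in GRL/L. Among 10 other glucocorticoid-induced genes, 9 rose and 0 fell in GRwt/wt of run 1, and 10 rose in GRwt/wt of run 2 and in GRL/L, with medians of 0.80, 1.44 and 1.18. In GRD/D 6 rose and 1 fell (median 0.33), in GRD+L/D+L 5 rose and 1 fell (median 0.40) and in GRko/ko none passed (median -0.01, edgeR and an adjusted p of at least 0.835 for each). Besides Fkbp5 and Per1, Sgk1 rose by 1.37, Klf9 by 1.05, Errfi1 by 0.97, Nfkbia by 0.63, Zfp36 by 0.58, Cebpd by 0.46 and Dusp1 by 0.34 in GRwt/wt of run 1, and Ddit4 rose only in run 2 (0.71 in GRwt/wt and 0.46 in GRL/L). The gene that fell in GRD/D (-0.40) and GRD+L/D+L (-0.31) was Dusp1, a phosphatase of MAP kinases. The Dex change differed from GRwt/wt for 5 of the 10 in GRD/D, 8 in GRD+L/D+L, 9 in GRko/ko and 3 in GRL/L, lower each time. In these tests of the difference 3.29%, 3.23%, 8.48% and 1.85% of all genes passed, in the same order.

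Of 9 WNK and NRBP genes, which act with the long TSC22 proteins, 4 rose and 1 fell in GRwt/wt of run 1 (median 0.18, 13.9% of all genes), and 6 rose and 2 fell in run 2 (median 0.32, 31.6% of all genes). GRL/L had 6 that rose and 1 that fell (median 0.38, 19.1% of all genes), and GRD/D and GRD+L/D+L had 3 that rose each (medians 0.05 and 0.05, 11.9% and 5.00% of all genes). The kinase Wnk1 rose by 1.03 in GRwt/wt of run 1, 0.64 in GRD/D, 0.56 in GRD+L/D+L, 0.67 in GRwt/wt of run 2 and 0.38 in GRL/L. Oxsr1, a kinase downstream of WNK, rose by 0.59 in GRwt/wt of run 1, 0.59 in GRD/D, 0.41 in GRD+L/D+L, 0.72 in GRwt/wt of run 2 and 0.56 in GRL/L. Nrbp2 rose by 0.47 and 0.62 in GRwt/wt of runs 1 and 2, Wnk3 fell by 0.64 and 0.76, and Wnk4 rose by 0.75 in run 2 while its change in run 1 was -0.22 (adjusted p = 0.599). None passed in GRko/ko (median 0.02), where the Dex change of Wnk1 (-1.25) and Oxsr1 (-0.55) differed from GRwt/wt.

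Among 10 binding partners of Gilz, 1 rose and 3 fell in each GRwt/wt set (medians -0.05 and -0.06), 4 fell in GRL/L (median -0.11), 1 fell in GRD+L/D+L (median 0.00) and none passed in GRD/D or GRko/ko (medians -0.00 and -0.03). The 4 of 10 that passed in GRwt/wt of run 2 stand beside 31.6% of all genes, so that share is near the background, and the 4 of 10 in GRwt/wt of run 1 and in GRL/L stand beside 13.9% and 19.1%. The AP-1 subunit Fos rose by 0.75 and 0.73 in GRwt/wt of runs 1 and 2. Its Dex change was lower than in GRwt/wt of the same run in all 4 mutants, by 0.59 to 0.71 (log2 differences -0.70 in GRD/D, -0.71 in GRD+L/D+L, -0.65 in GRko/ko and -0.59 in GRL/L, adjusted p = 0.0266, 0.0345, 0.0117 and 0.0153). Fos was the only partner of the 10 with a lower Dex change in these tests, and 1 partner had a higher one in each mutant of run 1. Of all genes, 3.29% differed in GRD/D, 3.23% in GRD+L/D+L, 8.48% in GRko/ko and 1.85% in GRL/L. Nfkb2, an NF-κB subunit, fell by 0.52 in GRwt/wt of run 2 and 0.41 in GRL/L.

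Of 4 FoxO genes, whose products activate Gilz in other settings, 1 rose in GRwt/wt of run 1 (median 0.02), 2 rose and 1 fell in GRwt/wt of run 2 (median -0.12), 2 rose and 2 fell in GRL/L (median -0.09) and none passed in GRD/D, GRD+L/D+L or GRko/ko (medians 0.03, -0.10 and -0.04). Foxo3 rose by 0.29 in GRwt/wt of run 1 and by 0.77 in run 2, and this difference between runs, 0.48, passed (adjusted p = 0.000280). In that comparison the Dex change of the 4 FoxO genes was higher in run 2 for 2 and lower for 1. Their median difference was -0.08, and 7.09% of all genes passed.

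The 10 TGF-β genes moved in both directions, with 4 up and 3 down in GRwt/wt of run 1, 2 up and 3 down in run 2, 3 up and 2 down in GRD/D and in GRD+L/D+L, 1 up and 4 down in GRL/L and none in GRko/ko, and with all 6 medians between 0.00 and 0.05. The ligand Tgfb2 rose by 0.89 in GRwt/wt of run 1 and changed by 0.07 in run 2 (adjusted p = 0.431). The co-receptor Tgfbr3 rose by 1.03 and 0.99 in GRwt/wt of runs 1 and 2, and in run 2 the signal transducer Smad3 fell by 0.97 and the ligand Tgfb3 by 0.86. Tgfbr1, the type I receptor, was singled out after its values were seen, as its pattern over the run 1 genotypes recalls that of Tsc22d1 in part. It rose by 0.31 in GRwt/wt, 0.96 in GRD/D and 1.23 in GRD+L/D+L, and its Dex change exceeded that of GRwt/wt by 0.65 (adjusted p = 0.000217) and 0.92 (adjusted p = 9.08e-07) in the mutants. Tsc22d1 changed by -0.02 in that GRwt/wt set. In each mutant 1 other gene of the 10 had a lower Dex change than in GRwt/wt, where 3.29% (GRD/D) and 3.23% (GRD+L/D+L) of all genes passed.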

How the data were processed

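RNA was sequenced from 36 MEF libraries, 3 for each of 12 genotype, treatment and run groups, which were assigned from their labels. The deposited values are raw read counts per gene, made by the authors with HISAT2 2.1.0 and featureCounts 2.0.0 on mm10 per the submitters' processing notes, without normalisation. All sample columns of the table were used. Counts were analysed with edgeR 4.0.16 and limma 3.58.1 in R 4.3.3. Libraries were scaled by TMM, low counts were removed by filterByExpr, which left 15489 genes, and 1 mean was fitted per group. Totals of 15280166 to 28662608 counts and a biological coefficient of variation of 0.0513 set the precision. The 16 contrasts comprised the Dex change of each of 6 sets, the 6 differences of Dex changes and the 4 vehicle levels against GRwt/wt of the same run. Each used the quasi-likelihood F test with Benjamini-Hochberg adjustment. Standard errors are the log2 change divided by the root of F, and intervals at 95% confidence take them as normal.

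The family, the pathway lists (WNK and NRBP, Gilz partners, FoxO, TGF-β, other glucocorticoid-induced genes) and the cell markers were chosen with earlier results of these data known. Of the pathway lists, genes that passed with a log2 change of at least 0.5 in a GRwt/wt set were open to naming. Genes most like a member were ranked by Pearson correlation over 36 libraries, 5 for each member and 3 for Tsc22d1, which did not pass in GRwt/wt. The correlations used log2 CPM with a prior count of 2. Fits were repeated with DESeq2 1.42.0, its size factors, other filters, the formula of the study with run as a term, each run alone, no GRko/ko libraries, replicate blocks, a log2 change of at least 1, and without each library in turn. The scripts were tested on simulated counts. Replicates were taken as separate cultures, as the design text of the series describes them. All libraries of a set had the pattern of the same sex, and whether its replicates came from different embryos was not tested. If they did not, the p-values of genotype comparisons measure the spread between libraries and not between embryos. No 2 libraries of a group agreed within sampling noise (1.65 to 31.8 times it), so none was merged as a repeated deposit.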

Additional observations from a re-analysis of the deposited data

Results flagged for a closer look

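The Dex change of 3 members differed between groups of MEFs in a test of the difference itself (log2 scale, quasi-likelihood F test of edgeR, adjusted over all genes). For Tsc22d3 the difference from GRwt/wt of run 1 was -1.32 in GRD/D, -1.36 in GRD+L/D+L and -1.82 in GRko/ko, and that from GRwt/wt of run 2 was -0.63 in GRL/L. The Dex change of Tsc22d3 in GRwt/wt was higher in run 2 than in run 1 by 1.73, where run, sex and embryo of origin cannot be told apart. Tsc22d1 differed from GRwt/wt of run 1 by 0.27 in GRD/D and 0.31 in GRD+L/D+L. Tsc22d4 differed by -0.44 in GRko/ko.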

How the results depend on the processing

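Of the 64 contrasts of single members, 64 kept direction and call with DESeq2 size factors in edgeR, 63 with DESeq2 and 63 with at least 10 counts in every library. The exceptions stood near the threshold. In the formula of the study, with run as a term and 1 Dex change for GRwt/wt, Tsc22d3 no longer passed for Dex in GRD/D (0.52, adjusted p = 0.178) and GRD+L/D+L (0.47, adjusted p = 0.430). There its GRL/L difference turned to 0.10 (adjusted p = 0.948) and its vehicle differences to 0.34 in GRD+L/D+L (adjusted p = 0.282), 0.57 in GRko/ko (adjusted p = 0.0366) and -0.41 in GRL/L (adjusted p = 0.215). Tsc22d2 turned to -0.011 for the GRL/L difference and 0.0038 for the GRL/L vehicle level. The members passing became 1 for Dex in GRD+L/D+L, 0 for the GRL/L difference, and 2, 1 and 1 for vehicle in GRD/D, GRD+L/D+L and GRL/L. With libraries of the same run only, Tsc22d2 in GRD+L/D+L turned to -0.0016. Requiring a log2 change of at least 1 removed Tsc22d3 for Dex in GRD/D (0.52) and GRD+L/D+L (0.47), for the GRL/L difference (-0.63) and for vehicle in GRD+L/D+L (-0.24). It left 1 member for Dex in both GRwt/wt sets and GRL/L, 0 in GRD/D and GRD+L/D+L, 1 for the differences of GRD/D, GRD+L/D+L and GRko/ko, 0 for that of GRL/L and 0 for vehicle. Between the GRwt/wt runs 2 members passed with at least 10 counts, without a filter or with a replicate block, and without a filter 0 passed for vehicle in GRD/D. Leaving out each library gave 36 fits, in which changes near 0 crossed it. Tsc22d1 ranged from -0.0048 to 0.034 for Dex in GRL/L, -0.046 to 0.0015 in GRwt/wt of run 1, -0.0016 to 0.081 for GRD+L/D+L minus GRD/D and -0.083 to 0.0094 between the runs. Tsc22d2 ranged from -0.011 to 0.019 for Dex in GRD+L/D+L, -0.13 to 0.023 in GRD/D, -0.028 to 0.056 in GRko/ko, -0.021 to 0.13 for GRD+L/D+L minus GRD/D and -0.014 to 0.13 for GRD/D minus GRwt/wt. Tsc22d3 ranged from -0.033 to 0.098 for Dex in GRko/ko, -0.098 to 0.0042 for GRD+L/D+L minus GRD/D, and for vehicle from -0.30 to -0.16 in GRD+L/D+L, -0.023 to 0.12 in GRD/D and -0.089 to 0.073 in GRko/ko. Tsc22d4 ranged from -0.0048 to 0.078 between the runs and -0.14 to 0.021 for vehicle in GRD/D. The members passing ranged from 1 to 2 for the GRL/L difference, 1 to 2 between the runs, 1 to 2 for vehicle in GRD+L/D+L, 0 to 1 in GRD/D and 0 to 1 in GRL/L. The cause was not tested in any of these.

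Whether a replicate number marks 1 culture is not given by the labels. The values gave no sign of it, as vehicle and Dex libraries of 1 number correlated at -0.0787 to 0.116 over 18 pairs, with 1 over 0.1 and 7 closest to their own number. A replicate block changed 1 of 60 contrasts, Tsc22d2 between the GRwt/wt runs (-0.24, adjusted p = 0.0484). No block could be fitted for vehicle levels of run 2, where the genotypes share no number.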
